A study of Mus musculus with 15 samples.

Results

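The IL-6 response of bone marrow-derived macrophages (BMDMs) was compared between cells that received IL-4 and cells that received IL-13. The measure was a difference of differences on the log2 scale, namely the change from IL-4 to IL-4/IL-6 minus the change from IL-13 to IL-13/IL-6, and it was computed for every gene with enough counts. It used 12 of the 15 RNAseq libraries of the series, 3 in each of the groups IL-4, IL-4/IL-6, IL-13 and IL-13/IL-6, and the 3 control libraries without IL-4, IL-13 or IL-6 gave the background level. BMDMs are macrophages grown in culture from mouse bone marrow, here for 7 days in M-CSF at 20 ng/ml, which all groups received. Per the study's methods the marrow came from mice at 8 to 12 weeks of age that carry a yellow fluorescent protein (YFP) reporter allele on both chromosomes. The cells were then treated for 24 h with IL-4 at 10 ng/ml, with IL-13 at 40 ng/ml, or with either of these together with IL-6 at 40 ng/ml. The partner cytokines were thus given at different doses, and cytokine and dose cannot be told apart in what follows. The study states this IL-13 dose for qPCR and flow cytometry, and its RNAseq methods describe no IL-13 group. The series holds no group with IL-6 alone. The study speaks of biological replicates in an RNAseq legend that names IL-4 and IL-4/IL-6 treatment alone. The labels do not say whether the 3 libraries of a group came from separate animals, so the p values measure the spread between these libraries.

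IL-4 and IL-13 are related cytokines that share the IL-4 receptor alpha chain, encoded by *Il4ra*. IL-4 can pair this chain with the common gamma chain (*Il2rg*) in the type I receptor, and both cytokines can use it together with IL-13 receptor alpha 1 (*Il13ra1*) in the type II receptor. Either receptor activates JAK kinases and STAT6, the transcription factor behind the alternative (M2) activation of macrophages. IL-6 binds its own alpha chain (*Il6ra*) and gp130 (*Il6st*), which activates JAK kinases, STAT3 and, through SHP2, the ERK pathway, and SOCS3 limits this signal.

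Summed counts were between 17198060 and 18918686 in the 12 libraries, so depth differed little between groups. The replicate spread did differ, with a biological coefficient of variation of 4.56% in IL-4, 14.8% in IL-4/IL-6, 10.9% in IL-13 and 7.38% in IL-13/IL-6. A pair of libraries stood apart from their groups. In IL-4/IL-6 replicate 2 and IL-13 replicate 1, short genes were high and long genes low relative to the group, with a difference between the shortest 10% and the longest 10% of the genes of 0.51 and 0.40 on the log2 scale, against values from -0.40 to 0.12 in the other libraries of the 12. The deviations of these libraries from their group means had a Pearson r of 0.75 across genes, which are not independent replicates. The part of gene length in the results was not tested beyond a correction described with the results. Macrophage markers were abundant in every library, with 12201 to 20658 CPM (counts scaled to the size of the library) summed over 10 markers in the 12 libraries. The group medians of this sum were 15367 CPM in IL-4, 12757 CPM in IL-4/IL-6, 17910 CPM in IL-13 and 15469 CPM in IL-13/IL-6. In the test described below, the IL-6 response of *Itgam* and *Cd14* among the 10 was called lower with IL-4. Markers of T and NK cells summed to 1.12 CPM at most and erythroid markers to 0.91 CPM at most, and markers of B cells to 1.69 CPM at most in these 12 libraries, against 25.2 to 31.5, 3.65 to 5.11 and 11.8 to 12.6 CPM in control. Granulocyte markers summed to 11.9 to 26.8 CPM, against 527 to 618 CPM in the control libraries. Summed markers of megakaryocytes and platelets were at 185 to 192 CPM in IL-4, 279 to 376 CPM in IL-4/IL-6, 163 to 172 in IL-13 and 409 to 469 in IL-13/IL-6, and those of eosinophils at 32 to 35.6, 42.9 to 43.4, 20.9 to 24.9 and 66.2 to 79.2, with *Epx* and *Prg3* at 0 in these 4 groups. The IL-6 response of *Ccr3*, an eosinophil marker, was called lower with IL-4. Dendritic cell markers summed to 1.05 to 1.26, 11 to 13.8, 0.732 to 1.91 and 2.87 to 3.73 CPM in the same order of groups, those of stromal and endothelial cells to 8.13 to 14.5, 19.3 to 24.4, 19.1 to 24.3 and 41.1 to 42.3, and those of basophils and mast cells to 5.15 to 6.58, 1.15 to 2, 5.94 to 9.43 and 2.78 to 3.25. The part of all these markers in the results was not tested. Fewer cells of a type and less RNA per cell cannot be told apart in these bulk samples.

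The IL-6 response differed between the partner cytokines in 858 of 13208 genes tested (6.5%) at an adjusted p under 0.05. This p came from the quasi-likelihood F-test of edgeR after Benjamini-Hochberg adjustment, as did all adjusted p values given here. The IL-6 response was higher with IL-4 in 339 genes (2.57%) and lower with IL-4 in 519 genes (3.93%). Genes called higher or lower with IL-4 in what follows are so in this response, not in level. A difference beyond 1 on the log2 scale was found in 97 of the former (0.734% of all genes) and 134 of the latter (1.01%). When the test was made against a difference of 1 rather than 0, 14 genes higher and 9 genes lower with IL-4 passed. These 23 genes were *3300005D01Rik*, *Cd163*, *Cd81*, *Dmwd*, *Habp4*, *Hcar2*, *Hs3st3b1*, *Maf*, *Mylip*, *Nabp1*, *Ogdhl*, *Osm*, *Ralgds* and *Tns1* on the higher side, and *Btbd11*, *Clec12a*, *Il18rap*, *Kcnj2*, *Nes*, *Pdgfb*, *Ptpn22*, *Rgs2* and *Sema4d* on the lower side. The median difference over all genes tested was 0.02. Without both libraries that stood apart, 1104 genes were higher and 1154 lower with IL-4, and 833 of the 858 genes were among them in the same direction. With a correction for gene length and GC content the counts were 602 and 728, with 846 of the 858 genes kept in the same direction. Both of these settings were chosen after seeing the data. When single libraries were left out, the number of genes higher with IL-4 ranged from 214, without IL-13 replicate 3, and 220, without IL-13/IL-6 replicate 1, to 493, without IL-4/IL-6 replicate 2.

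Most of the 858 genes answered to IL-6 in the same direction with either partner, or passed the test with IL-4 alone. IL-6 raised 204 of them in both arms and lowered 246 in both arms. A further 145 were raised and 164 lowered with IL-4 without passing the test with IL-13, while 49 were raised and 18 lowered with IL-13 without passing the test with IL-4. In 31 genes the arms were called in opposite directions, and 1 gene passed in neither arm. Over all genes tested, 2730 were called in both arms, 2699 of them in the same direction and 31 in opposite directions. The larger absolute change was the one with IL-4 in 727 of the 858 genes, against 8761 of all 13208 genes tested (66.3%). Over all genes, IL-6 raised 2537 genes (19.2%) and lowered 2506 (19%) with IL-4, and raised 1491 (11.3%) and lowered 1755 (13.3%) with IL-13. With upper-quartile scaling the IL-4 arm split into 1907 raised and 3049 lowered genes, so the balance between raised and lowered genes depended on the scaling. Across all genes the effects in both arms had a Pearson r of 0.78, given as a description since genes are not replicates.

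**Figure D1:**
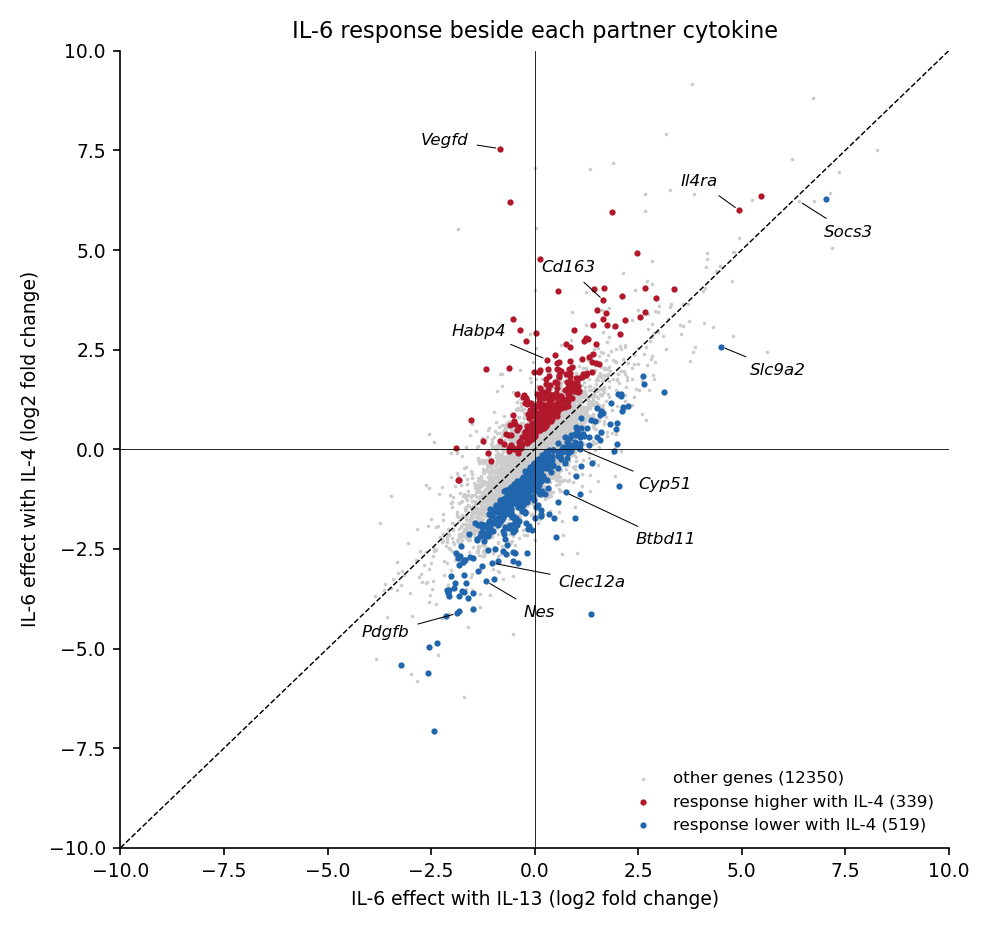
IL-6 effect with IL-13 (horizontal axis) against IL-6 effect with IL-4 (vertical axis), both as log2 fold change from edgeR, 1 point per gene tested (13208), with the dashed line marking equal effects. The 339 genes in red lie above the line and the 519 in blue below it, most of them on the same side of 0 in both arms.

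**Figure D2:**
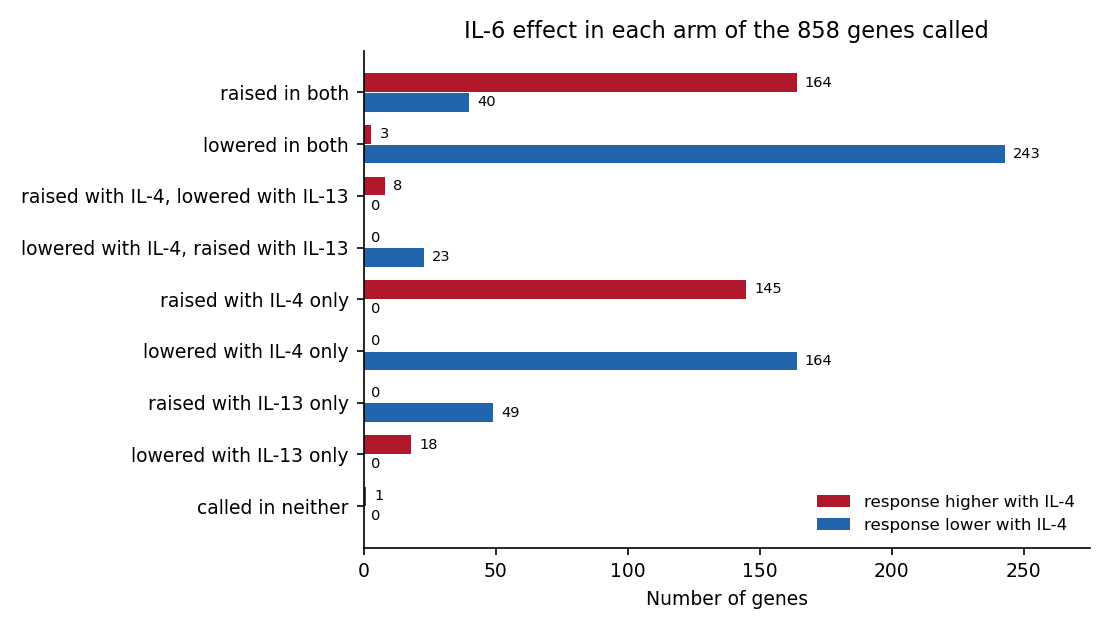
Number of the 858 genes (horizontal axis) in each combination of IL-6 effects called with IL-4 and with IL-13, in red for genes whose response was higher with IL-4 and in blue for those whose response was lower. The largest classes are the 243 genes lowered in both arms and further with IL-4, the 164 lowered with IL-4 only, the 164 raised in both arms and further with IL-4, and the 145 raised with IL-4 only.

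The same measure equals the difference between IL-4 and IL-13 in the presence of IL-6 minus that in its absence. Of the 858 genes, 698 were farther apart between the partners with IL-6 than without it, against 8532 of all 13208 genes tested (64.6%). Between IL-4 and IL-13, 360 of the 858 differed at an adjusted p under 0.05, while between IL-4/IL-6 and IL-13/IL-6 750 did. Over all genes these counts were 1414 (10.7%) and 3921 (29.7%). In 53 of the 858 genes both differences passed the test and had opposite signs, so that the order of the partners was turned by IL-6. Over all 13208 genes tested this count was also 53.

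The genes that IL-6 raised further with IL-4 were led, among those with at least 5 CPM in a group, by *Fcrlb*, *3300005D01Rik*, *Hs3st3b1*, *Hcar2*, *Tgfbr3*, *Baiap2l1*, *Cd163*, *Gm26674*, *Il1r1* and *Habp4*. *Cd163* (ENSMUSG00000008845, chr6:124304656-124330527 in GRCm38) encodes the scavenger receptor for hemoglobin-haptoglobin complexes on macrophages. It was at 16.2, 14.9 and 14.6 normalized CPM in IL-4, 221, 170.4 and 225 CPM in IL-4/IL-6, 19, 27.8 and 24.8 in IL-13 and 71.5, 85.4 and 70.4 in IL-13/IL-6, and at 6.2, 8.48 and 8.3 in control. IL-6 therefore raised it 13.4-fold with IL-4 and 3.16-fold with IL-13, and the difference of the log2 effects was 2.08 ± 0.2 (SE, adjusted p = 2.71e-05). The order of the partners was turned, since the IL-4 libraries lay below the IL-13 libraries and the IL-4/IL-6 libraries above the IL-13/IL-6 libraries, without overlap.

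*Il1r1* (chr1:40225080-40317257), the signaling receptor of IL-1, was at 4.82, 5.7 and 4.2 CPM in IL-4, against 56.6, 49.5 and 60.5 in IL-4/IL-6, but at 1.07, 1.75 and 1.7 in IL-13 and 4.16, 4.34 and 4.45 in IL-13/IL-6. The lowest IL-4/IL-6 library was thus above every other library by a wide margin, and the control libraries were at 0.469, 0.72 and 0.505. The difference of the IL-6 effects was 1.98 ± 0.25 (adjusted p = 2.23e-04). *Hcar2*, the receptor for nicotinic acid and beta-hydroxybutyrate, rose from 0.907 ± 0.186 to 15 ± 2.93 CPM (mean ± SD, n = 3) with IL-4 and from 1.66 ± 0.206 to 4.51 ± 0.351 with IL-13, a difference of 2.6 ± 0.3. *Tgfbr3*, the TGF-beta co-receptor betaglycan, rose from 0.473 ± 0.12 to 14.6 ± 2.32 CPM with IL-4 and from 0.392 ± 0.176 to 2.23 ± 0.576 with IL-13. Its difference was 2.45 ± 0.51 (adjusted p = 0.00956), and without IL-13 replicate 3 the adjusted p was 0.0843. *Hs3st3b1*, a heparan sulfate sulfotransferase, and the long noncoding RNA *3300005D01Rik* passed the test with IL-4 only. *Hs3st3b1* was at 1.87, 1.72 and 2.35 CPM in IL-4, 8.51, 7.13 and 8.98 CPM in IL-4/IL-6, 2.89, 3.04 and 2.83 in IL-13 and 2.6, 1.57 and 1.56 in IL-13/IL-6. *3300005D01Rik* was at 2.2 ± 0.35 CPM in IL-4, with 17.7 ± 2.98 CPM in IL-4/IL-6, against 1.63 ± 0.429 and 1.29 ± 0.368 in the IL-13 arm. *Fcrlb*, an Fc receptor-like protein, was at the limit of detection in IL-4 (3 counts or fewer in each library), and IL-6 raised it at least 37.4-fold with IL-4, taken against 3 counts per library, and 3.65-fold with IL-13.

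The smallest adjusted p values on this side belonged to genes expressed at moderate to high levels. *Habp4*, which encodes an RNA- and hyaluronan-binding protein, was at 33.8, 32.1 and 34.5 CPM in IL-4, 149.8, 173 and 160.3 CPM in IL-4/IL-6, 27.8, 25.8 and 26.8 in IL-13 and 34.8, 32.1 and 32.7 in IL-13/IL-6. It rose 4.76-fold with IL-4 and 1.23-fold with IL-13 (difference 1.96 ± 0.11, adjusted p = 5.11e-07). *Maf* (chr8:115682942-115707794), encoding the transcription factor c-MAF, was at 123, 122 and 124 CPM in IL-4, against 537, 602 and 557 in IL-4/IL-6, and at 241, 289 and 274 in IL-13 and 383, 431 and 392 in IL-13/IL-6. In control it was at 233, 247 and 264, so the IL-4 libraries were all below control, while the IL-13 and control libraries overlapped. Its difference was 1.6 ± 0.11 (adjusted p = 2.76e-06). *Nabp1*, a single-stranded nucleic acid-binding protein, rose from 33.7 ± 1.15 to 175 ± 10.3 CPM with IL-4 and from 35.8 ± 3.27 to 50.4 ± 6.65 with IL-13. *Mylip*, a ubiquitin ligase that is a target of the oxysterol receptor LXR, rose from 16.3 ± 0.967 to 65.5 ± 7.84 CPM with IL-4 (log2 1.99) and had a log2 effect of 0.13 ± 0.1 with IL-13 that did not pass the test. *Cd164*, a sialomucin, rose from 72.4 ± 1.53 to 459 ± 14.2 CPM with IL-4 and from 65.9 ± 4.6 to 184 ± 6.04 with IL-13. *Cd81*, a tetraspanin also known from cell fusion, rose from 91.1 ± 2.89 to 544 ± 93.3 CPM with IL-4 and from 58.2 ± 4.55 to 107 ± 5.89 with IL-13 (difference 1.7 ± 0.14, adjusted p = 1.15e-05).

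A few genes with low counts had larger fitted differences, and *Vegfd*, *Ogdhl* and *Dusp14* were singled out after their values were seen. *Vegfd*, a lymphatic growth factor, was at 4.48, 4.89 and 4.78 CPM in IL-4/IL-6 and did not exceed 3 counts in any IL-4, IL-13 or IL-13/IL-6 library. IL-6 raised it at least 28.9-fold with IL-4, and no fold was computed with IL-13. *Vegfd* passed the filter on low counts through its IL-4/IL-6 libraries alone, so its p values are a description only. The adjusted p was 0.00894, and 0.193 without IL-13 replicate 2. *Dusp14*, a MAP kinase phosphatase, was at 3.01, 2.77 and 2.36 CPM in IL-4/IL-6 and at 0.521, 0.434 and 0.223 in IL-13/IL-6, and IL-6 raised it at least 16.6-fold with IL-4 (adjusted p of the difference 0.00437). *Ogdhl*, an oxoglutarate dehydrogenase-like enzyme, was at 1.93, 1.71 and 1.96 CPM in IL-4/IL-6 and rose at least 11.4-fold (adjusted p of the difference 0.0021).

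**Figure D3:**
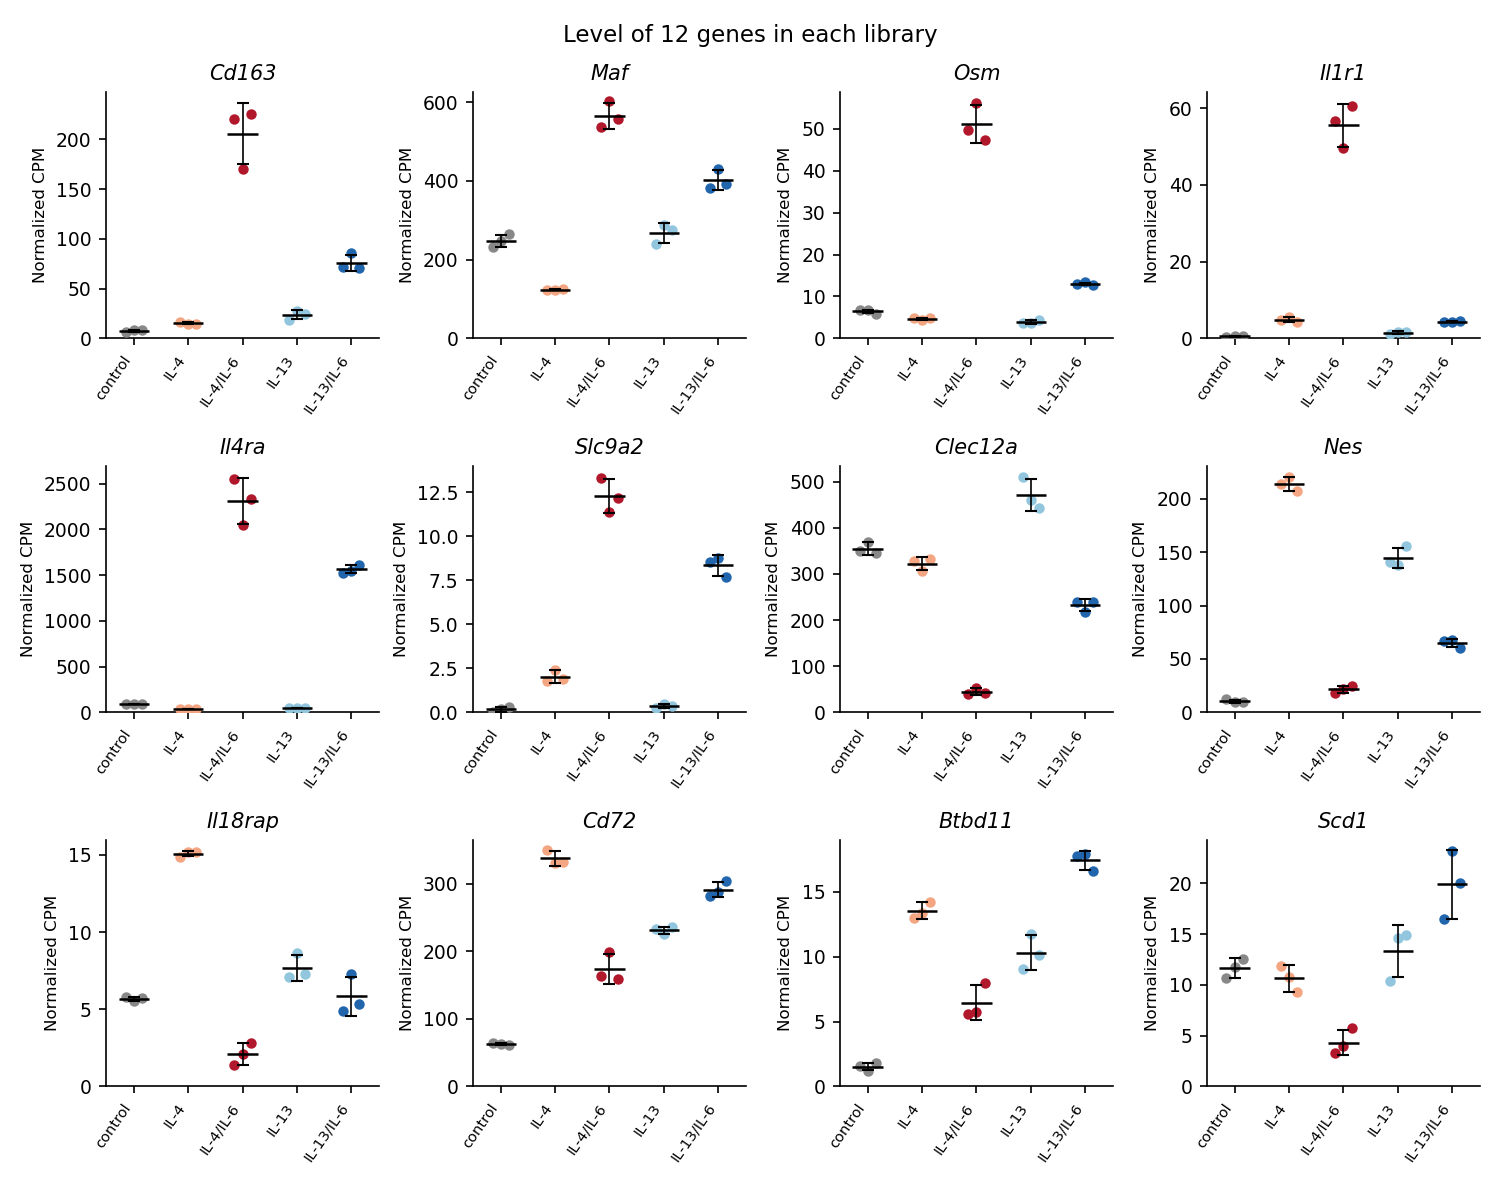
Normalized CPM (vertical axis, from 0, linear) of 12 genes in each of the 15 libraries by group, with points for libraries and black bars for the mean and SD of 3 replicates. *Cd163*, *Maf*, *Osm* and *Il1r1* are highest in IL-4/IL-6, *Clec12a*, *Nes*, *Il18rap* and *Scd1* have their lowest levels among the 4 cytokine groups there, and *Cd72* and *Btbd11* go down with IL-6 beside IL-4 and up beside IL-13.

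The genes that IL-6 lowered further with IL-4 included *Nes*, *Pdgfb*, *Clec12a*, *Tmcc3*, *Vegfc*, *Nxpe1-ps*, *Rin2* and *Tlr13*. *Nes* (chr3:87971078-87980451), encoding the intermediate filament protein nestin, was at 214, 219.9 and 207 CPM in IL-4, 18.5, 21.9 and 24.6 CPM in IL-4/IL-6, 141, 138 and 156 in IL-13 and 66.3, 68 and 60.2 in IL-13/IL-6. It was at 12.1, 9.48 and 9.54 in control, below all libraries with a partner cytokine alone, and IL-6 lowered it 9.94-fold with IL-4 and 2.25-fold with IL-13. The difference of the log2 effects was -2.15 ± 0.13 (adjusted p = 1.60e-06). *Clec12a* (chr6:129342691-129365303), an inhibitory C-type lectin receptor of myeloid cells, was at 328, 307 and 332 CPM in IL-4, 40.8, 53.3 and 41.1 CPM in IL-4/IL-6, 510.0, 460.0 and 443 in IL-13 and 239, 218 and 239.9 in IL-13/IL-6. The control libraries were at 349.5, 370.1 and 345, far above the IL-4/IL-6 libraries. *Clec12a* had a difference of -1.83 ± 0.13 (adjusted p = 4.25e-06).

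*Pdgfb*, a platelet-derived growth factor chain, fell from 42.4 ± 3.53 to 2.46 ± 0.216 CPM with IL-4 and from 54.3 ± 3.24 to 15 ± 1.85 with IL-13, a difference of -2.25 ± 0.17 (adjusted p = 4.25e-06). *Vegfc*, a lymphatic growth factor, fell from 6.85 ± 1.41 to 0.516 ± 0.254 CPM with IL-4 and from 3.26 ± 0.77 to 1.08 ± 0.225 with IL-13 (difference -2.12 ± 0.45, adjusted p = 0.0105, and 0.06 with limma voom and group weights). *Tlr13*, a sensor of bacterial RNA, fell from 224 ± 3.88 to 78.1 ± 0.378 CPM with IL-4 and from 359 ± 29.7 to 302 ± 5.33 with IL-13. *Rin2*, a regulator of the endosomal GTPase Rab5, fell from 277 ± 6.75 to 87.1 ± 0.439 CPM with IL-4 and from 243 ± 13.7 to 171 ± 5.77 with IL-13. *Tmcc3* fell from 15.1 ± 1.02 to 2.19 ± 0.171 CPM with IL-4 and from 17.5 ± 1.03 to 9.58 ± 3.22 with IL-13. *Il18rap* (chr1:40515362-40551705), the accessory chain of the IL-18 receptor, had the largest negative difference among the genes with at least 5 CPM in a group and separate replicates in the arm of the larger change. It was at 14.9, 15.2 and 15.2 CPM in IL-4, 1.36, 2.12 and 2.82 CPM in IL-4/IL-6, 7.12, 8.67 and 7.26 in IL-13 and 4.92, 7.27 and 5.34 in IL-13/IL-6. The replicates of IL-13 and IL-13/IL-6 overlapped, and the effect of IL-6 passed the test with IL-4 only (difference -2.46 ± 0.28, adjusted p = 1.14e-04). *Ckb*, brain-type creatine kinase, had a level of 451 ± 10.8 CPM in IL-4, 174 ± 31.6 in IL-4/IL-6, 519.6 ± 67.7 in IL-13 and 432 ± 24 in IL-13/IL-6, and it too passed with IL-4 only (difference -1.11 ± 0.16).

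IL-6 moved 31 of the 858 genes in opposite directions in the arms. In 23 of them IL-6 lowered the gene with IL-4 and raised it with IL-13. *Cd72* (chr4:43446462-43454628), an inhibitory co-receptor on B cells and macrophages, was at 350.4, 331 and 333 CPM in IL-4 and fell to 163, 199 and 159, while it rose from 234, 226 and 235 in IL-13 to 281, 289 and 304 in IL-13/IL-6. The replicates with and without IL-6 did not overlap in either arm, and the control libraries were at 63.7, 62.8 and 61.8. The difference was -1.3 ± 0.11 (adjusted p = 1.15e-05). *Btbd11*, an ankyrin repeat and BTB domain protein, went from 13, 13.4 and 14.2 CPM in IL-4 to 5.61, 5.72 and 8.01 and from 9.05, 11.8 and 10.1 in IL-13 to 17.8, 17.9 and 16.6. Its difference was the largest of this orientation after that of *Scd1* (-1.83 ± 0.2, adjusted p = 6.54e-05). *C5ar1*, the receptor of complement C5a, fell from 314 ± 6.21 to 194 ± 10.8 CPM with IL-4 and rose from 505 ± 17.7 to 581 ± 25.6 with IL-13. *Clec4a3*, a C-type lectin receptor with close paralogs, fell from 41.8 ± 1.57 to 30.4 ± 6.34 CPM and rose from 21 ± 1.12 to 31.1 ± 3.7.

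The opposite orientation held 8 genes. *Hmgn2*, a nucleosome-binding protein with many processed copies in the genome, rose from 120.1 ± 6.38 to 184 ± 31.5 CPM with IL-4 and fell from 111 ± 11.5 to 74 ± 3.04 with IL-13 (difference 1.2 ± 0.15, adjusted p = 2.26e-04). *Osbpl3*, an oxysterol-binding protein family member, rose from 67 ± 3.25 to 87.7 ± 7.69 CPM and fell from 67.4 ± 6.31 to 42.3 ± 1.37. *C77080* had levels of 57.9 ± 3.43 and 75.5 ± 7.84 CPM in the IL-4 arm and 74.6 ± 5.97 and 47.9 ± 3.02 in the IL-13 arm. *Mcf2l*, a guanine nucleotide exchange factor, rose from 66.4 ± 6.77 to 85.6 ± 9.03 CPM with IL-4 and fell from 25.8 ± 4.51 to 17.4 ± 1.7 with IL-13. The predicted gene *Gm10282* rose with a log2 effect of 0.49 with IL-4 and had -0.43 with IL-13. Of the 31 genes, 4 had effects beyond 0.5 on the log2 scale in both arms. Without both libraries that stood apart 114 genes had opposite directions, and without IL-4 replicate 2, IL-13/IL-6 replicate 1 or IL-13/IL-6 replicate 3 there were 19, 20 and 20.

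In 131 of the 858 genes the larger effect was the one with IL-13. *Slc9a2*, a sodium-hydrogen exchanger, was at 1.77, 2.44 and 1.91 CPM in IL-4, against 13.3, 11.4 and 12.2 in IL-4/IL-6, and at 0.268, 0.45 and 0.361 in IL-13 and 8.56, 8.79 and 7.68 in IL-13/IL-6. IL-6 raised it 5.96-fold with IL-4 and 22.7-fold with IL-13 (difference -1.93 ± 0.29, adjusted p = 9.52e-04). *Ptgs2*, the inducible cyclooxygenase, was at 2.57 ± 1.08 and 2.49 ± 0.934 CPM in IL-4 and IL-4/IL-6, and it rose from 1.32 ± 0.297 in IL-13 to 5.05 ± 0.613 in IL-13/IL-6. Its adjusted p was 0.0179, and it lost its call in 3 of the 12 omissions of a single library (adjusted p up to 0.0621, without IL-4 replicate 3). The cholesterol genes were also of this kind.

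Genes of cholesterol synthesis and uptake, most of them targets of the sterol-sensing transcription factor SREBP2, were raised more by IL-6 with IL-13 than with IL-4. Of the 24 members tested, 18 passed the test of the difference, all of them lower with IL-4, against 3.93% of all genes. The median difference was -0.72, against 0.02 over all genes, and every member was below 0. IL-6 raised 23 of the 24 with IL-13, against 11.3% of all genes, and 12 with IL-4, against 19.2%, while it lowered *Dhcr7* with IL-4. The summed level of the 24 genes was 1482, 1471 and 1494 CPM in the IL-4 libraries and 1759, 1798 and 1800 CPM in IL-4/IL-6. In IL-13 it was 1567, 1677 and 1675 CPM, and in IL-13/IL-6 it reached 3032, 3195 and 2988 CPM. The control libraries were at 2011, 2036 and 1981 CPM, below the IL-13/IL-6 libraries and above all others.

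The difference was found from the start to the end of the pathway. *Hmgcs1*, an entry enzyme, had an IL-6 effect of 0.32 on the log2 scale with IL-4 and of 1.09 with IL-13, a difference of -0.77 ± 0.14 (adjusted p = 0.0043). *Fdft1* (squalene synthase), *Sqle* (squalene epoxidase) and *Lss* (lanosterol synthase), which make the first sterol, had differences of -1.0, -0.54 and -0.79. *Cyp51* (chr5:4081145-4104746), the lanosterol demethylase, had the largest difference of the list. It was at 103, 97.6 and 101 CPM in IL-4, 94.5, 113 and 99.1 CPM in IL-4/IL-6, 108, 112 and 103 in IL-13 and 242, 238 and 215 in IL-13/IL-6, and at 135, 135 and 126 in control. The groups of the IL-4 arm overlapped, whereas those of the IL-13 arm were far apart (difference -1.1 ± 0.11, adjusted p = 2.99e-05). Of the late enzymes, *Sc5d* had IL-6 effects of -0.04 and 0.88 and *Dhcr7* of -0.39 and 0.45 with IL-4 and IL-13. *Insig1*, which retains the SREBP complex in the endoplasmic reticulum and is itself a target of it, had a difference of -0.67 ± 0.08 (adjusted p = 1.81e-04). *Srebf2* itself did not pass (difference -0.36 ± 0.13, adjusted p = 0.151), and among the others without a call were *Mvk*, *Pmvk*, *Fdps* and *Ebp*. Between 16 and 22 members were lower with IL-4 in the 22 alternatives other than the test against a difference of 1, which no member passed, with 22 when both libraries that stood apart were left out and 21 after the correction for length and GC content.

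**Figure D4:**
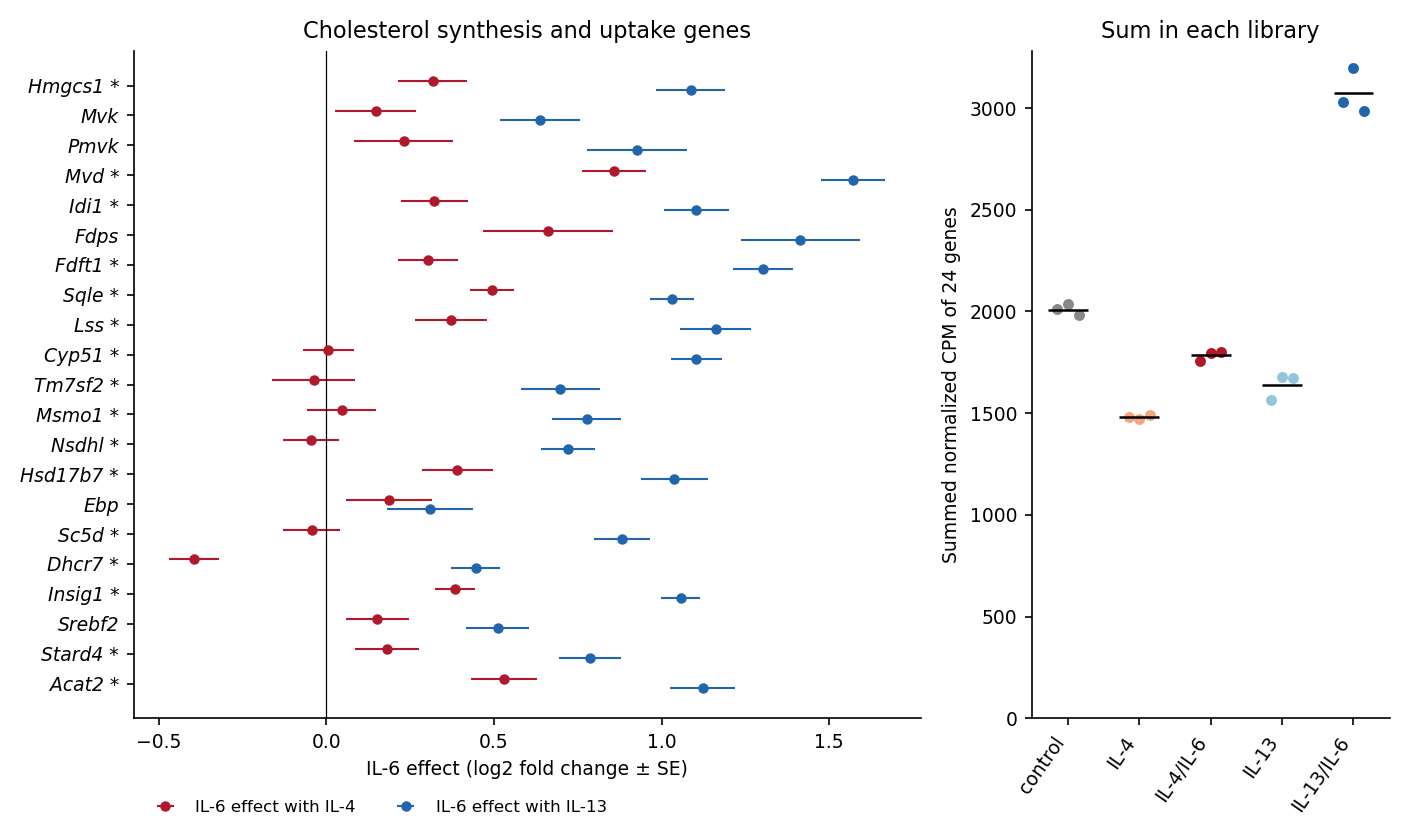
IL-6 effect on 21 of the 24 cholesterol synthesis and uptake genes (left, log2 fold change ± SE, red with IL-4 and blue with IL-13, asterisks for the 16 genes whose effects differed at an adjusted p under 0.05) and the summed normalized CPM of all 24 in each library (right, bars are group means). Every gene shown lies farther to the right with IL-13, and the IL-13/IL-6 libraries hold 2988 to 3195 CPM, above all other libraries.

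Related lipid genes were mixed. *Scd1* and *Scd2*, the stearoyl-CoA desaturases that make monounsaturated fatty acids, were counted with the targets of LXR, the oxysterol receptor. *Scd1* was at 11.9, 10.7 and 9.28 CPM in IL-4, 3.29, 3.95 and 5.7 CPM in IL-4/IL-6, 10.4, 14.6 and 14.9 in IL-13 and 16.4, 23.2 and 20.0 in IL-13/IL-6. It fell with IL-4 and rose with IL-13 (difference -1.88 ± 0.28, adjusted p = 8.80e-04). *Scd2* rose from 269 ± 58.3 to 449 ± 97.2 CPM with IL-13 and was at 329.9 ± 38.6 and 261 ± 71.3 in IL-4 and IL-4/IL-6, with an adjusted p of 0.037 and a call lost in 7 of the 12 single omissions (adjusted p up to 0.102, without IL-4 replicate 1). These paralogs are similar in sequence, and how reads shared by them were counted is not known. *Lpl*, lipoprotein lipase, fell from 7809.8 ± 108 to 3170.0 ± 259 CPM with IL-4 and from 6648 ± 368 to 3802 ± 206 with IL-13 (adjusted p of the difference 0.00534, and 0.0998 after the correction for length and GC content). Together with *Mylip*, these made 4 called genes of 14 tested on that list (28.6%, against 6.5% of all genes), whose median difference was -0.20.

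Of the 13 genes tested for IL-4 and IL-13 receptor chains and STAT6 signaling, 2 were higher and 2 lower with IL-4 (30.8% called, against 6.5% of all genes). *Il4ra* (chr7:125552120-125579474) was at 37.5, 35.5 and 34.1 CPM in IL-4, 2552, 2048 and 2336 CPM in IL-4/IL-6, 49.6, 51.6 and 51.7 in IL-13 and 1528, 1548 and 1613 in IL-13/IL-6, and at 87.4, 91.3 and 92.2 in control. IL-6 raised it 64.2-fold with IL-4 and 30.5-fold with IL-13, and without IL-6 it was lower with IL-4 than with IL-13 (log2 -0.52, adjusted p = 7.47e-04). The difference of the IL-6 effects was 1.08 ± 0.11 (adjusted p = 5.03e-05). *Jak2*, a kinase of both receptor families, was at 63.1, 66.5 and 65.4 CPM in IL-4, 206, 193 and 223 CPM in IL-4/IL-6, 45.8, 55.2 and 54.3 in IL-13 and 68.9, 83 and 76.9 in IL-13/IL-6 (difference 1.11 ± 0.13, adjusted p = 1.14e-04). The phosphatase genes *Ptpn6* (SHP1) and *Ptpn1* (PTP1B) had differences of -0.45 and -0.42, and lost their calls in 5 and 4 of the 12 single omissions (adjusted p up to 0.0686 and 0.0694). Neither was called without IL-4 replicate 2, IL-13 replicate 2 or IL-13/IL-6 replicate 3.

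The other receptor chains were not called. *Il2rg* was at 18.4 ± 1.64 CPM in IL-4, against 14 ± 2.71 in IL-4/IL-6, and at 16.7 ± 2.56 and 15.7 ± 1.69 in the IL-13 arm (difference -0.31 ± 0.21, adjusted p = 0.525, and 0.0325 without both libraries that stood apart). *Il13ra1* was low in the cytokine groups, with 2.86 ± 0.595 CPM in IL-4, 3.49 ± 0.381 in IL-4/IL-6, 3.77 ± 1.16 in IL-13 and 6.44 ± 1.09 in IL-13/IL-6, against 25.9 ± 0.634 in control. The decoy receptor gene *Il13ra2* had 0 counts in every library, where 3 counts would be the limit of detection. *Stat6* had a difference of -0.23 ± 0.11 (adjusted p = 0.29).

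On the IL-6 side, 3 of 22 genes tested were higher with IL-4 and 3 lower (27.3% called, against 6.5% of all genes). *Osm* (chr11:4236420-4241026), encoding oncostatin M, another cytokine that signals through gp130, was at 4.92, 4.48 and 4.8 CPM in IL-4, 49.8, 56.1 and 47.3 CPM in IL-4/IL-6, 3.64, 3.77 and 4.43 in IL-13 and 13, 13.3 and 12.9 in IL-13/IL-6. Without IL-6 its level was below control (6.67, 6.71 and 5.89) with either partner, and the libraries with IL-6 were above control, without overlap. The difference of the IL-6 effects was 1.7 ± 0.15 (adjusted p = 1.81e-05). *Cebpd*, a transcription factor of the acute-phase response, rose from 21.1 ± 1.58 to 139.6 ± 25.5 CPM with IL-4 and from 19.5 ± 2.11 to 44.6 ± 8.84 with IL-13 (difference 1.53 ± 0.21, adjusted p = 4.92e-04). *Pim1*, a STAT-induced kinase, had 1.68 and 1.02 (difference 0.66 ± 0.11). *Bcl6*, a transcriptional repressor, fell with IL-4 (log2 -0.71) and had -0.06 ± 0.07 with IL-13, a difference of -0.65 ± 0.1 (adjusted p = 0.00128). *Junb* had IL-6 effects of -0.22 and 0.4, both called, and *Il10ra*, a chain of the IL-10 receptor, of -0.98 and -0.36.

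*Socs3*, *Stat3*, *Il6ra* and *Il6st* of the IL-6 pathway were not called with all 12 libraries, and *Il6st* was called in some alternatives. *Socs3* was at 1.28, 1.55 and 2.24 CPM in IL-4, 143, 121 and 122 CPM in IL-4/IL-6, 1.66, 1.13 and 1.03 in IL-13 and 105, 106 and 109.5 in IL-13/IL-6. IL-6 raised it 75.2-fold and 83.1-fold, and the difference of the log2 effects was -0.14 ± 0.26 (adjusted p = 0.871). *Stat3* had IL-6 effects of 1.7 and 1.62 (difference 0.09 ± 0.12), and *Il6ra* had 0.07 and 0.16, neither of them called. A difference that did not pass the test is not shown to be absent, and the SE values bound what these 12 libraries could resolve. *Il6st* (gp130) had 1.13 ± 0.15 with IL-4 and 0.57 ± 0.15 with IL-13, a difference of 0.56 ± 0.21 with an adjusted p of 0.154. It was called without IL-4/IL-6 replicate 2 (adjusted p = 0.0057), without IL-13 replicate 1 (0.0457) and without both of these libraries, where the difference was 0.86 (7.27e-06). It was also called after the correction for length and GC content (0.00496) and with no filter on low counts (2.12e-04). *Jak1*, *Jak3* and *Tyk2* had differences of 0.06, -0.15 and -0.05, none of them called, whereas *Jak2*, described above, was called.

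Sequence was examined only as a description. STAT dimers bind a TTC and a GAA set a few bases apart, so TTCNNNGAA (3-base spacing, the STAT3 type) and TTCNNNNGAA (4-base spacing, the STAT6 type) were searched, whose forms are the same on both strands. RefSeq promoter windows of GRCm38.p6 were matched by symbol for 268 of the 339 genes higher with IL-4, 400 of the 519 lower with IL-4 and 9528 of the 13208 tested, and the 250 bases before the start were searched. The 3-base spacing occurred in 21 of 369 windows (5.69%) of the former genes, 34 of 546 windows (6.23%) of the latter and 5.83% of all windows. The 4-base spacing occurred in 14 (3.79%), 17 (3.11%) and 4.81% of them. These shares were not tested against each other. A match is no binding site, and no match says only that these letters were not in this window. *Socs3*, which responded to IL-6 beside either partner, and *Bcl6* and *Pdcd1lg2*, whose responses differed, are shown because they hold such matches, with the matches in capitals.
Socs3, chr11:117969367-117969616, minus strand, 3-base spacing: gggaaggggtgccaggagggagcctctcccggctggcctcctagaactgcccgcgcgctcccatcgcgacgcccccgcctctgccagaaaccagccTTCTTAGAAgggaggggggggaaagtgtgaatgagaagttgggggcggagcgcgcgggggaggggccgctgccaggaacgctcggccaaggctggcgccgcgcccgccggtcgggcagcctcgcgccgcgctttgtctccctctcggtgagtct
Bcl6, chr16:23981284-23981533, minus strand, 3 matches of 3-base spacing: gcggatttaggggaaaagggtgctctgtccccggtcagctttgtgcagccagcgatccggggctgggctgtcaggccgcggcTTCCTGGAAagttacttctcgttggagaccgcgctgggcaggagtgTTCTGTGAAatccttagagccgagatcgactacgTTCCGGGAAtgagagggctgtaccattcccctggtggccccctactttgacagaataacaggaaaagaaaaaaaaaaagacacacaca
Pdcd1lg2, chr19:29410669-29410918, plus strand, 4-base spacing: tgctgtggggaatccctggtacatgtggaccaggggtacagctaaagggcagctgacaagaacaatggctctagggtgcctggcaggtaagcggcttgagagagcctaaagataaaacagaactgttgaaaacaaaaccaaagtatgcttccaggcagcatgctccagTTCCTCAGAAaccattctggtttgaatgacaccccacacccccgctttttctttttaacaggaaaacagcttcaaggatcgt

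Among genes of alternative (M2) activation, 3 of 38 tested were higher and 11 lower with IL-4, with a median difference of -0.33. The share called was 36.8%, against 6.5% of all genes, while the median was -0.18 without IL-13 replicate 1, -0.22 without IL-13/IL-6 replicate 2, -0.16 without both libraries that stood apart and -0.15 with limma voom. *Mrc1*, the mannose receptor, rose 8.67-fold and 11.5-fold, and its difference of -0.4 ± 0.15 was not called (adjusted p = 0.17), though it was after the correction for length and GC content (adjusted p = 0.00503) and with no filter on low counts (0.00492). *Chil3*, a chitinase-like protein, rose from 548 ± 9.86 to 1541 ± 145 CPM with IL-4 and from 190.1 ± 9.59 to 354 ± 8.7 with IL-13 (difference 0.59 ± 0.1, adjusted p = 0.00184). Its close paralog *Chil4* had 1.56 ± 0.51 (adjusted p = 0.0979, 0.0226 without IL-13 replicate 3, 0.00623 with DESeq2 and 0.00559 with no filter on low counts), and reads that fit both genes may have been split between them. *Retnla*, a secreted resistin-like protein with 0 counts in the control libraries (3 counts being the limit of detection), fell with IL-6 in both arms, from 729 ± 52.7 to 399 ± 119.9 CPM and from 51.2 ± 4.55 to 23.1 ± 1.03, with a difference of 0.27 ± 0.22 that was not called. *Pdcd1lg2*, the inhibitory ligand PD-L2, had 0.99 ± 0.21 (adjusted p = 0.0112).

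The M2 genes whose IL-6 response was lower with IL-4 included *Irf4*, *Fcrls*, *Mgl2* and *Il1rl1*. *Irf4*, a transcription factor of M2 polarization, fell from 36, 37.5 and 38.1 CPM in IL-4 to 3.01, 3.54 and 3.23 in IL-4/IL-6, and from 9.48, 13 and 13.6 in IL-13 to 2.89, 3.04 and 2.67 in IL-13/IL-6. The levels with IL-6 overlapped between the partners although those without it did not (difference -1.46 ± 0.21, adjusted p = 5.79e-04). *Mgl2*, a galactose-binding lectin, fell from 375 ± 24.7 to 177 ± 26.7 CPM with IL-4 and was at 116 ± 11.3 and 105 ± 18.1 in IL-13 and IL-13/IL-6, where the effect was not called. *Fcrls*, an Fc receptor-like scavenger receptor, rose 1.55-fold with IL-4 and 3.51-fold with IL-13 (difference -1.18 ± 0.11, adjusted p = 1.56e-05). *Il1rl1*, the IL-33 receptor, had -1.52 ± 0.42 with an adjusted p of 0.0458, and the call was lost in 9 of the 12 single omissions (adjusted p up to 0.185, without IL-13/IL-6 replicate 2) and with DESeq2 (0.0672).

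Of 20 chemokine genes tested, 2 passed the test of the difference (10%, against 6.5% of all genes), *Ccl4* and *Ccl3*, which attract monocytes and other leukocytes, both lower with IL-4. This count rested on the libraries used, with 7 of 22 called lower without IL-4/IL-6 replicate 2, 7 of 22 without both libraries that stood apart and 6 of 20 after the correction for length and GC content. Over all genes, 681 of 13470, 1154 of 13409 and 728 of 13194 were lower in these settings. *Ccl4* rose from 42.8, 47.9 and 48.1 CPM to 91.5, 123 and 77.6 with IL-4 and from 29.1, 24.2 and 26.6 to 126, 106 and 122 with IL-13 (difference -1.08 ± 0.19, adjusted p = 0.00286). *Ccl3* was at 46.7 ± 1.83 and 46.1 ± 3.64 CPM in the IL-4 arm and rose from 35.5 ± 1.14 to 55.1 ± 3.91 with IL-13. *Ccl2*, *Ccl7*, *Ccl8* and *Ccl12*, ligands of CCR2 and related receptors and close neighbors in sequence, were raised in both arms, with differences of 0.04 ± 0.16, -0.49 ± 0.17, -0.41 ± 0.42 and -0.52 ± 0.34, none of them called. *Ccl7* was called without IL-4/IL-6 replicate 2 (adjusted p = 0.00413), without both libraries that stood apart (1.76e-04), after the length and GC correction (0.00486) and with no filter (7.93e-04). *Ccl24* was called in the first 2 of these settings (0.00892 and 0.0224), and its difference in all 12 libraries was -0.55 ± 0.26 (adjusted p = 0.306). *Ccl17*, *Il6*, *Il11* and *Ly6c1* had at most 7 counts in any of the 15 libraries and were not tested. *Il10* rose in both arms (difference 0.56 ± 0.32, adjusted p = 0.434), and *Adgre1* and *Irf7* had differences of -0.09 and -0.84 that were not called, *Irf7* being called with no filter on low counts (adjusted p = 8.43e-06).

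**Figure D5:**
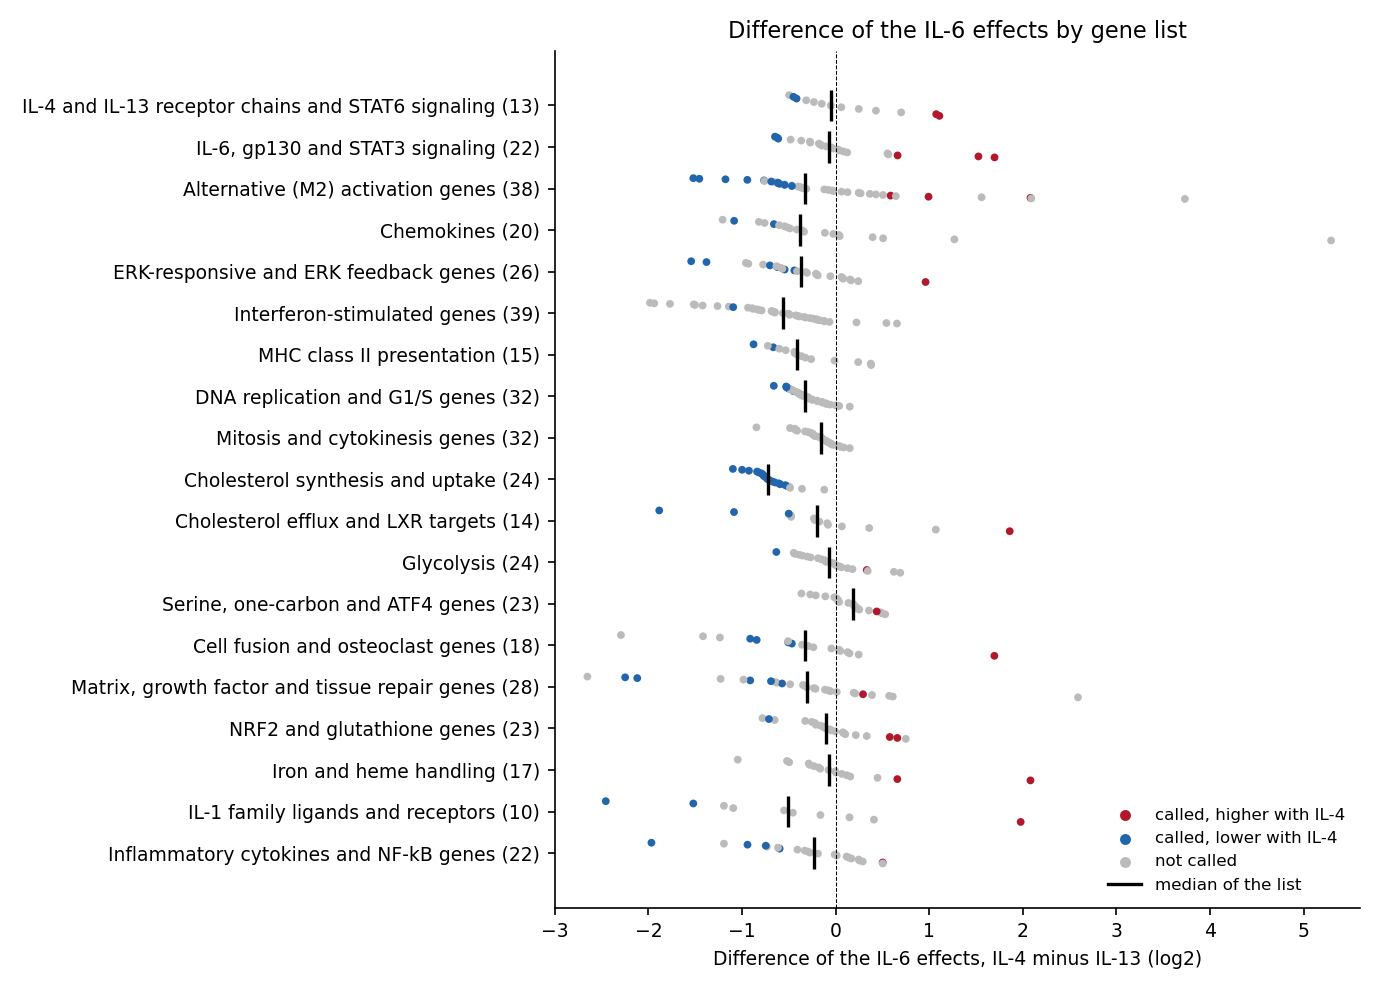
Difference of the IL-6 effects (IL-4 minus IL-13, log2, horizontal axis) of each gene tested in 19 gene lists, with the number of genes in parentheses, red and blue for genes called higher and lower with IL-4, grey for others and a black line at the median of each list. The cholesterol synthesis list is the one with all genes below 0 and has a median of -0.72.

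Of the 26 genes tested that respond to ERK or feed back on it, 1 was higher and 6 lower with IL-4 (26.9% called, against 6.5% of all genes). The lower genes numbered from 4, without any of the IL-4 libraries among others, to 8, without IL-4/IL-6 replicate 2, and 10 without both libraries that stood apart, where 1154 of all 13409 genes were lower. *Dusp6*, the ERK phosphatase, was at 56.9, 57.4 and 62.3 CPM in IL-4, 143, 153 and 143 CPM in IL-4/IL-6, 96.7, 105 and 104 in IL-13 and 130.0, 128 and 131 in IL-13/IL-6, and was the one on the higher side (0.96 ± 0.09, adjusted p = 2.18e-05). Without IL-6 it was lower with IL-4 than with IL-13, and with IL-6 the order was turned (log2 -0.79 and 0.17). The early response genes *Egr1* and *Egr2* fell with IL-6 in both arms, *Egr1* by 5.65-fold with IL-4 and 1.94-fold with IL-13 (difference -1.54 ± 0.22, adjusted p = 6.34e-04). *Dusp5*, another ERK phosphatase, had IL-6 effects of -1.87 with IL-4, which was called, and -0.49 with IL-13, which was also called. *Fosl2* rose with IL-13 only (log2 0.64), with an adjusted p of the difference of 0.0319 and a call lost in 7 of the 12 single omissions (adjusted p up to 0.0837, without IL-4 replicate 1).

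Among 10 genes tested of the IL-1 family and its receptors, 3 were called (30% against 6.5% of all genes), namely *Il1r1* on the higher side and *Il18rap* and *Il1rl1* on the lower side, all described above. Of 22 inflammatory and NF-kB genes, 1 was higher and 4 lower with IL-4 (22.7% called, against 6.5% of all genes). Single omissions left 1 to 4 lower genes, with 1 without IL-13/IL-6 replicate 3 and 2 without any of the IL-4 libraries, IL-4/IL-6 replicate 1, IL-13 replicate 3 or IL-13/IL-6 replicate 1. *Cd14*, the lipopolysaccharide co-receptor, fell from 103, 103 and 98.2 CPM in IL-4 to 44.9, 51.7 and 42.9 in IL-4/IL-6, and was at 299, 229 and 251 in IL-13 and 237, 223 and 223 in IL-13/IL-6 (difference -0.94 ± 0.13, adjusted p = 6.04e-04). *Nlrp3*, an inflammasome sensor, had -0.75 ± 0.19, and its call (adjusted p = 0.026) was lost in 6 of the 12 single omissions (adjusted p up to 0.0765, without IL-4 replicate 2). Interferon-stimulated genes had a median of -0.56 over 39 genes, of which 36 were below 0, and *Oasl2* was the one called (2.56%, against 6.5% of all genes). Its adjusted p was 0.0299, and the call was lost in 5 of the 12 single omissions (up to 0.0854). This median leaned on IL-13/IL-6 replicate 3, in which the genes summed to 2321 CPM against 1511 and 1465 in the other libraries of its group, and without it the median was -0.23 with 31 genes below 0. With no filter on low counts 17 of 40 were called lower, against 642 of 23669 over all genes. Of the 15 genes tested for MHC class II presentation, *Cd40* and *H2-DMa* were lower with IL-4 (13.3% called, against 6.5% of all genes). *Cd40*, a co-stimulatory receptor, rose 1.25-fold with IL-4 and 2.3-fold with IL-13 (adjusted p of the difference 0.00314), and *H2-DMa* lost its call in 6 of the 12 single omissions (adjusted p up to 0.092, without IL-13/IL-6 replicate 3). Without IL-4/IL-6 replicate 2 the list had 4 called genes, without both libraries that stood apart 8 and after the length and GC correction 4, all lower with IL-4, against 681 of 13470, 1154 of 13409 and 728 of 13194 genes lower in all.

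Most cell cycle genes fell with IL-6 in both arms. Of 32 genes of DNA replication and the G1/S transition, IL-6 lowered 31 with IL-4, against 19% of all genes, and 30 with IL-13, against 13.3%, and 7 were called lower with IL-4 in the difference (21.9%, against 6.5% of all genes), whose median was -0.33. *Pcna*, the sliding clamp of DNA polymerases, was at 991, 1020.0 and 1074 CPM in IL-4, 487, 598 and 448 CPM in IL-4/IL-6, 1141, 991 and 944 in IL-13 and 837, 772 and 795 in IL-13/IL-6 (difference -0.66 ± 0.14, adjusted p = 0.00848). *Lig1*, *Uhrf1*, *Mcm7*, *Mcm5* and *Mcm10* had differences between -0.53 and -0.45, and *Uhrf1* and *Mcm10* lost their calls in 10 and 2 of the 12 single omissions (adjusted p up to 0.121 and 0.0572, both without IL-4 replicate 2). The 7 called genes of the list became 12 without IL-4/IL-6 replicate 2, 4 without IL-4 replicate 2 or IL-13/IL-6 replicate 3, and 16 without both libraries that stood apart, where 1154 of all 13409 genes were lower. Of 32 genes of mitosis and cytokinesis, IL-6 lowered all 32 in each arm, and 0 were called in the difference by the quasi-likelihood test of edgeR, against 6.5% of all genes. At an unadjusted p under 0.05 there were 4, against 2262 of all 13208 genes, and DESeq2 called 1. The median difference of that list was -0.15.

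In the remaining lists the share of called genes ranged from 4.35% to 27.8%, against 6.5% of all genes. Without both libraries that stood apart, where 1104 genes were higher and 1154 lower of 13409, there were 3 higher and 4 lower for iron and heme handling, 2 and 5 for NRF2 and glutathione, and 2 and 5 for glycolysis. *Hmox1*, heme oxygenase 1, rose from 561 ± 27.5 to 1979 ± 214 CPM with IL-4 and from 742 ± 63.6 to 1649.9 ± 149 with IL-13 (difference 0.66 ± 0.13, adjusted p = 0.00551), and with *Cd163* it made the 2 called genes of 17 tested for iron and heme handling (11.8%), both higher with IL-4. Of 23 NRF2 and glutathione genes, *Hmox1* and *Gsr* were higher and *Gpx1* lower with IL-4 (13% called). Of 28 matrix, growth factor and repair genes, 1 was higher and 5 lower (21.4% called, with 8 lower without IL-4/IL-6 replicate 2 and 12 without both libraries that stood apart). The higher gene, *Timp2*, lost its call in 10 of the 12 single omissions (adjusted p up to 0.122). The lower genes included *Igf1*, which fell 2.17-fold with IL-4 and 1.46-fold with IL-13 (adjusted p = 4.11e-04), and *Spp1* (osteopontin), which rose 2.64-fold and 4.26-fold (adjusted p = 0.0159, and above 0.05 in 2 of the 12 single omissions, up to 0.0548 without IL-4 replicate 3). Of 18 genes of cell fusion and osteoclasts, *Cd81* was higher, and *Mmp9*, *Myo10*, *Tnfrsf11a* and *Cdh1* were lower with IL-4 (27.8% called, with 7 lower without IL-4/IL-6 replicate 2 and 8 without both libraries that stood apart). *Tnfrsf11a* was not called without IL-4 replicate 3 (adjusted p = 0.0567) or without IL-13/IL-6 replicate 3 (adjusted p = 0.0509). *Mmp9*, a matrix metalloproteinase, had IL-6 effects of -0.76 with IL-4 and 0.15 with IL-13, and the motor protein gene *Myo10* had -0.99 and -0.15, called with IL-4 only in both genes. Glycolysis had 2 called genes of 24 (8.33%), *Pfkfb4* (-0.63) and *Hk3* (0.33), and the list of serine, one-carbon and ATF4 genes 1 of 23 (4.35%), *Slc7a5* (0.44), both near the share over all genes. *Hk3* and *Slc7a5* lost their calls in 8 and 11 of the 12 single omissions (adjusted p up to 0.15 and 0.152), and also with upper-quartile scaling, other filters and the replicate block.

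Of the 99 called genes that were chosen by rule or list, 79 kept their call when any of the 12 libraries was left out, and none reversed. Of these 99 genes, 19 overlap another annotated gene, 16 of them on the opposite strand, among them *Cd81*, *Cebpd*, *Baiap2l1*, *Cd72*, *Junb*, *Cyp51* and *Fdft1*. Whether the counting used strand is not known, so reads of such pairs may not have been told apart.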

How the data were processed

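RNA of BMDMs was sequenced by a service company. The authors deposited raw read counts, not normalized, of 53465 Ensembl identifiers, and FPKM values that equal the count over a gene length and the library total. The submitters' processing notes list GRCm38 and the tools HISAT2 2.1.0, Bowtie2 2.2.3, TopHat2, CASAVA and DESeq2 without their roles, and the counting tool and its use of strand are not given in the sources used here. Symbols were found for 53274 identifiers in GENCODE M21 (GRCm38), which also gave coordinates and overlaps. Summed counts were 17198060 to 18918686 in the 12 libraries tested, and the spread between replicates, given as SE, sets the precision.

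For the 12 libraries the counts were tested in edgeR 4.0.16 under R 4.3.3 (filterByExpr with a minimum count of 10, TMM factors, glmQLFit and glmQLFTest, 1 coefficient per group, no covariate, Benjamini-Hochberg adjustment over the 13208 genes tested, calls at an adjusted p under 0.05). The fitted SE is that of the log2 effect. Displayed CPM used TMM factors of all 15 libraries, and no group had fewer than 3 libraries. Means carry the SD of 3 replicates. A gene with 3 counts or fewer in each library of a group was called undetected there. The scripts were tested on simulated data. No 2 replicates agreed within sampling noise.

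Genes named were the 10 largest differences in each direction with at least 5 CPM in a group and separate replicates, the 5 largest in each orientation of opposite effects, the 5 smallest adjusted p values in each direction, the 5 most abundant called genes with a difference beyond 1, genes the study names, and up to 6 called members of each of 19 lists with the receptor and STAT genes. Some of these genes are not reported here. These members and lists were chosen with earlier results of these data known. Alternatives were DESeq2 1.42.0, other scaling, other filters, all 15 libraries, a replicate block, limma 3.58.1 voom with group weights, a test against a difference of 1, log2(FPKM + 0.1) for the chosen genes alone and the omission of each library. The omission of both libraries that stood apart and a correction for gene length and GC content (natural splines with 5 degrees of freedom per library as offsets, 13194 genes) were added after seeing the data.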

Additional observations from a re-analysis of the deposited data

Results flagged for a closer look

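The IL-6 effect differed between the IL-4 and the IL-13 arm, by the test of the difference itself, in 858 of 13208 genes. Among them, 31 genes were called in opposite directions in the arms, of 2730 called in both arms over all genes. Cytokine and dose cannot be told apart in this difference.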

How the results depend on the processing

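None of the 858 calls reversed under the alternatives fitted across all genes, and 496 of them (186 higher and 310 lower with IL-4) were called in the same direction in all 22 alternatives other than the test against a difference of 1, which left 14 and 9 genes. Leaving out both libraries that stood apart gave 1104 genes higher and 1154 lower with IL-4, 2359 genes raised with IL-13, 874 called genes with the same direction in both arms and 114 with opposite directions. The length and GC correction gave 602 genes higher with IL-4 and 700 with the same direction in both arms. Asking for arm effects beyond 0.5 on the log2 scale left 4 genes with opposite directions. The causes were not tested.

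When single libraries were left out, genes higher with IL-4 ranged from 214 to 493 and those lower from 376 to 681. Genes raised with IL-13 ranged from 1168 to 1840. Opposite directions ranged from 19 to 40 and the same direction in both arms from 326 to 619. The highest of these counts came without IL-4/IL-6 replicate 2, and the lowest number of genes higher with IL-4 came without IL-13 replicate 3.

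With a replicate block, 253 genes were higher and 422 lower with IL-4, and 662 of the 858 calls were kept. The labels do not say whether same-numbered libraries were paired. The deviations of same-numbered libraries correlated from -0.61 to 0.51, which cannot decide this with 3 libraries per group. Upper-quartile scaling gave 272 and 623 genes. DESeq2 gave 445 and 683 genes, and no filter on low counts 401 and 642 of 23669 tested. Of the 99 called genes chosen by rule or list, 90 kept their call under the replicate block and 98 with DESeq2, and with both libraries left out all 99 did.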
